A study of Mus musculus with 64 samples.

Results

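The genes described here are 10 immediate early response genes, Fos, Fosb, Jun, Junb, Egr1, Atf3, Ier2, Ier3, Nr4a1 and Myc, which were found by their symbols among the 39152 named genes of the count and TPM (transcript abundance scaled by length and library total) tables. All 10 symbols were present. Bulk RNA was sequenced from both ventricles, right (RV) and left (LV), of 32 C57BL6 mice, 64 libraries in all, in a model of arrhythmogenic right ventricular cardiomyopathy in which the desmosomal gene Pkp2 can be deleted from cardiomyocytes. All animals carried Pkp2 fl/fl alleles, and the Pkp2-cKO (cKO) animals also carried αMyHC-Cre-ER(T2), a tamoxifen-dependent Cre under the promoter of a cardiomyocyte myosin, so that deletion was directed to cardiomyocytes while the other cells of the heart kept their alleles. The AAV_1E14_2.5wk group (6 animals) were cKO mice that received, at 2.5 weeks after tamoxifen, 1e+14 vector genomes per kg of AAV9:mPkp2, an adeno-associated virus that carries mouse Pkp2. The groups called AAV_1E14 (5 animals) and AAV_3E13 (8 animals) were cKO mice dosed, per the labels, 1 week before tamoxifen, at 1e+14 and 3e+13 vector genomes per kg. The study's text puts the early dose before tamoxifen in some passages and after it in another, so its timing is not settled here. The cKO group (4 animals) had received tamoxifen and HBSS, the vehicle, and WT animals (9) were Cre-negative Pkp2 fl/fl littermates that received HBSS. The vector and WT hearts belonged to a collection at 51 weeks and the cKO hearts had been taken earlier, so that in every comparison with cKO hearts the group and the age at collection cannot be told apart. Ages and sexes were not given in the labels. Animals are named by group and number, and libraries by group, ventricle and number.

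Immediate early genes are transcribed within minutes of a growth signal, stretch, injury or a rise in calcium, without the need for new protein synthesis, and their short-lived RNAs disappear soon after the signal stops. Most are switched on when kinases of the MAP kinase family act on factors already bound to their promoters, such as serum response factor with its ELK partners and the cyclic AMP response element (CRE) binding protein. In the heart they are known from pressure overload, ischaemia and reperfusion, and cardiomyocytes, fibroblasts, endothelial cells and leukocytes can all express them. Fos, Fosb, Jun and Junb encode subunits of the dimeric factor AP-1, Atf3 a stress-induced factor of the same leucine zipper class, and Egr1 and Nr4a1 a zinc finger factor and an orphan nuclear receptor. Myc drives growth and ribosome production, Ier2 encodes a small nuclear protein, and Ier3 a protein linked to cell survival.

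Promoter windows from RefSeq (GRCm38.p6, another build than that of the counts) were available for 7 of the 10 genes and run from 250 bases before the transcription start to 50 bases after it. The windows of Fos, Junb, Atf3 and Nr4a1 are shown because Fos, Junb and Atf3 were called higher in cKO RV than in WT RV and Nr4a1 was not. Capitals mark TGACG, the CRE half-site, or its complement CGTCA, and the TATA box TATAAA. They lie at chr12:85473640-85473939 (plus strand), chr8:84978699-84978998 (minus strand), chr1:191183284-191183583 (minus strand) and chr15:101266596-101266895 (plus strand).
Fos: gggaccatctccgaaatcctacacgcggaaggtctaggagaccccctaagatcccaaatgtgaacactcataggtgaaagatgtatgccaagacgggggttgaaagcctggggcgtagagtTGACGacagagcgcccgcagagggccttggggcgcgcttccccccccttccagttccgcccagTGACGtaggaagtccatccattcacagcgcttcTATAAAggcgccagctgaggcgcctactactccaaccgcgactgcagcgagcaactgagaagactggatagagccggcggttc
Junb: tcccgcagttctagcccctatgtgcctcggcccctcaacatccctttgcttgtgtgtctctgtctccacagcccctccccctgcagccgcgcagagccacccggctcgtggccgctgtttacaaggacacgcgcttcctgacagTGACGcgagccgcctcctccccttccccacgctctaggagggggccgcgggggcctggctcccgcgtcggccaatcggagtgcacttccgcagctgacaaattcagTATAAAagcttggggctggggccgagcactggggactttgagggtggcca
Atf3: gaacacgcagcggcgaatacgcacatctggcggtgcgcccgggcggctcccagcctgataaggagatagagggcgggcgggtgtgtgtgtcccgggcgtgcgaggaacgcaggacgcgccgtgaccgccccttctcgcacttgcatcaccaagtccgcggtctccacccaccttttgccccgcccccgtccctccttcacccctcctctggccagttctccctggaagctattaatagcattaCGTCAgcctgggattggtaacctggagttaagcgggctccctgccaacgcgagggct
Nr4a1: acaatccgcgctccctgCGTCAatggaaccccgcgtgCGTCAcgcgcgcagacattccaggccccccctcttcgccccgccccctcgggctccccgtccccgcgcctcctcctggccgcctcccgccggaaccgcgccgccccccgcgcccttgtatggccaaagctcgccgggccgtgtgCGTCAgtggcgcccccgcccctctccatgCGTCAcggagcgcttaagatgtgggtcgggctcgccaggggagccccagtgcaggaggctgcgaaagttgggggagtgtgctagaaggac

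TGACG on either strand was found in 5 of the 7 windows, beside 20.8% of all 32851 promoter windows of this length. Fos held it 129 and 66 bases before the start, Fosb 60, Junb 106 and Atf3 7 bases before it, and Nr4a1 held 4 copies, 233, 213, 69 and 40 bases before it. TATAAA on either strand was in 2 of the 7 windows (Fos, 33 bases before the start, and Junb, at the start) and in 13.6% of all windows. None of the 7 held the full CRE TGACGTCA (1.79% of all windows), of which TGACG is a part, the AP-1 site TGANTCA (7.81%), the EGR site GCGTGGGCG (0.612%) or a CArG box, the site of serum response factor (1.63%), with each motif read on both strands. These matches describe letters in these windows only.

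On GRCm39, the build of the counts, Fos lay at chr12:85520658-85524047, Fosb at chr7:19036621-19043976, Jun at chr4:94937271-94940459, Junb at chr8:85701113-85705359, Egr1 at chr18:34992876-34998049, Atf3 at chr1:190902493-190950241, Ier2 at chr8:85387960-85389483, Ier3 at chr17:36132568-36133815, Nr4a1 at chr15:101151980-101172681 and Myc at chr15:61857227-61862223. Some reads may belong to neighbours. Jun shared 3189 bases with the antisense RNA Junos and Junb shared 1238 bases with Prdx2 on the opposite strand. Nr4a1 shared 2740 bases with the RNA Gm56721 of its own strand. The kit kept the strand of the RNA, and whether the quantification used it is not given in the sources used here.

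The library totals used, without the mitochondrially encoded genes, ran between 5.34e+06 and 1.02e+07 counts per library. This limited the precision for genes with few counts. The smallest count above 0 was 3 for Fosb, 10 for Fos and Atf3, 13 for Myc and 17 for Ier2. The labels were checked through Pkp2. It held 38.7 to 100 CPM (counts scaled by TMM to the library size, over all 64 libraries) in cKO RV, 154 to 399 in AAV_3E13 RV, 497 to 1845 in AAV_1E14 RV and 1060 to 3804 in AAV_1E14_2.5wk RV, against 123 to 185 CPM in WT RV. In LV the ranges were 34.9 to 88.3 CPM in cKO, 221 to 351 in AAV_3E13, 477 to 2100 in AAV_1E14 and 626 to 4798 in AAV_1E14_2.5wk, against 162 to 220 CPM in WT. Cardiomyocyte markers were present in every library. The libraries of animal AAV_1E14_2.5wk_5814 went against their shared number, since the RV held 263 CPM of Xist and 99.5 CPM of Ddx3y and the LV 3064 and 0 CPM. An atrial marker list, which includes Nppa, summed to up to 751 CPM in 1 WT RV library (WT_RV_5819). No pair of libraries within a group agreed within sampling noise. Replicates were separate animals.

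Levels between genes can be compared per length, in TPM. Jun was the highest of the 10, with group means between 20.2 and 41.2 TPM over the 10 combinations of group and ventricle. Ier3 followed with means of 14.1 to 24.6 TPM and Egr1 with 8.40 to 27.4 TPM, and these ranges overlapped with each other and with that of Jun. Junb (5.24 to 18.2 TPM), Nr4a1 (4.28 to 11.4), Ier2 (3.67 to 9.34), Atf3 (1.54 to 10.1), Myc (1.57 to 9.81) and Fos (1.61 to 7.76) lay lower, and their ranges overlapped too. Fosb was the lowest, at 0 to 0.477 TPM.

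**Figure D1:**
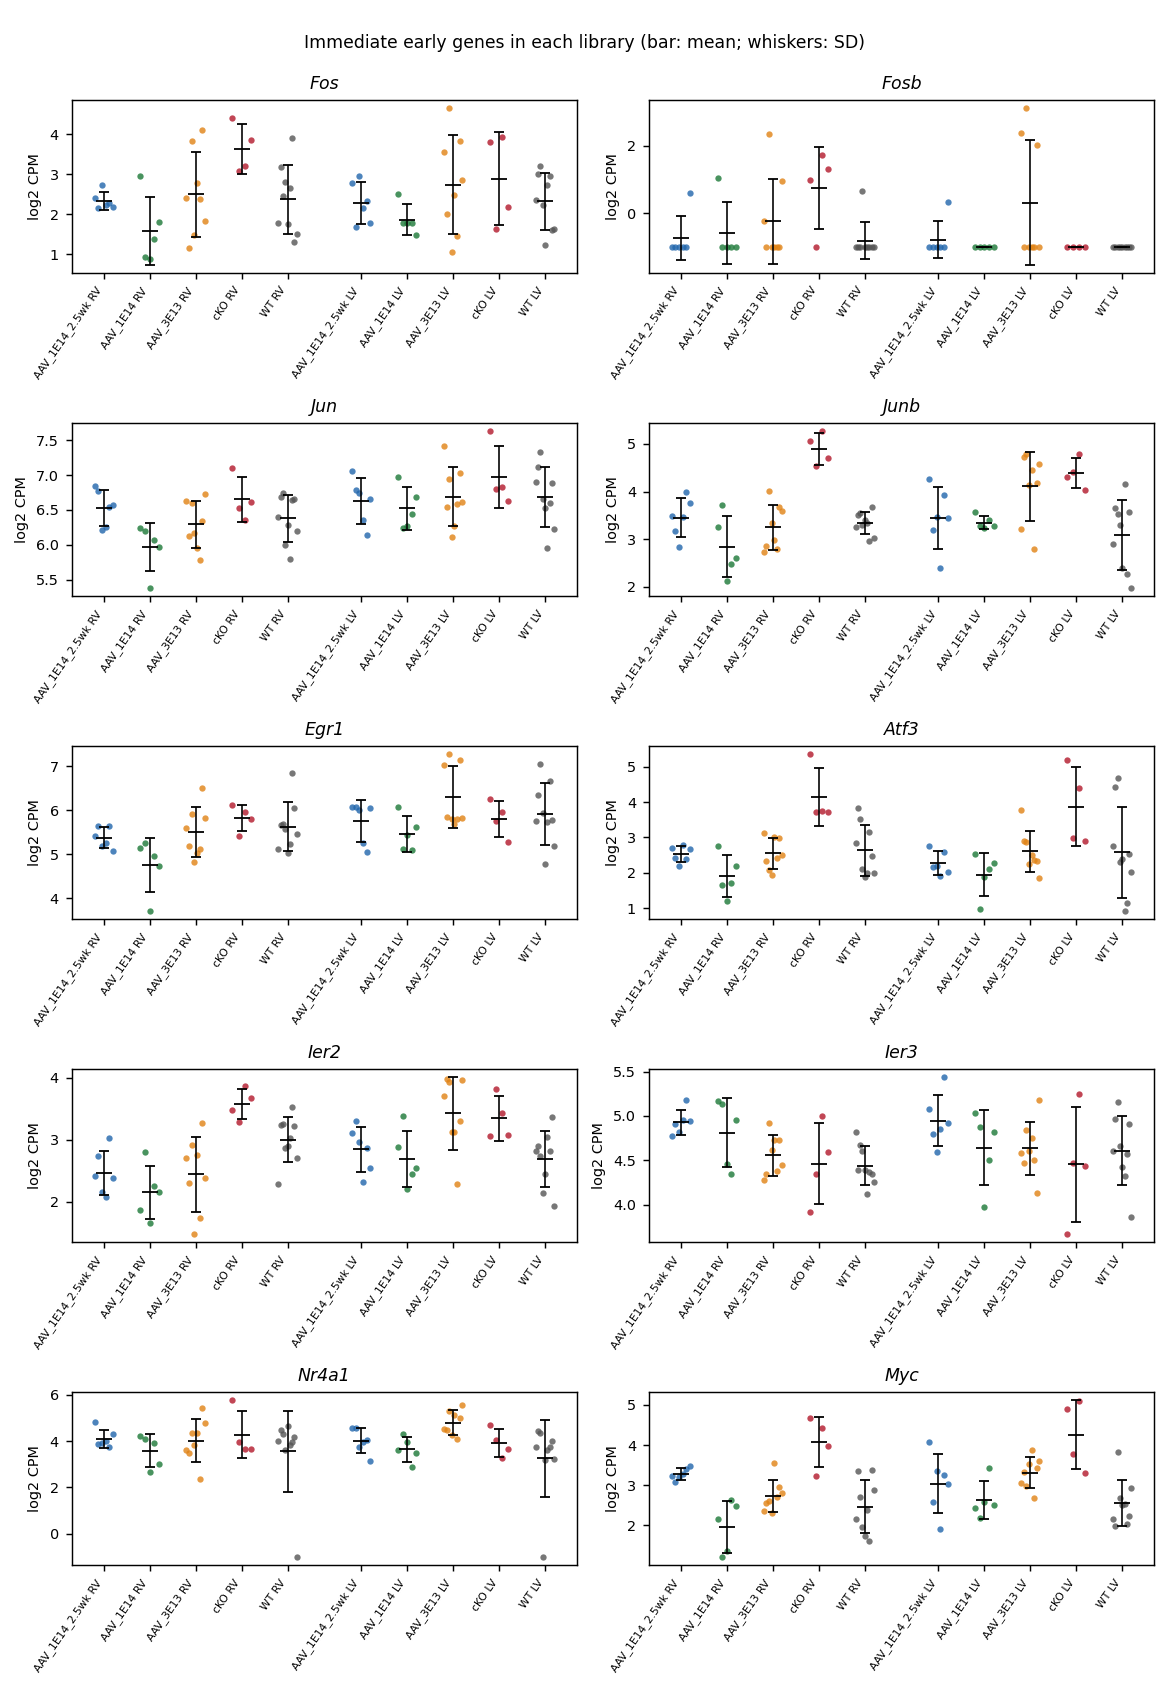
Level of each of the 10 genes as log2 CPM, 1 point per library, by group and with RV left of LV, with a bar at the group mean and whiskers of 1 SD. The 4 points of Junb in cKO RV (22.8 to 38.2 CPM) lie above all 9 of WT RV (7.27 to 12.3 CPM), and the lone low points of Nr4a1 are the 2 WT libraries listed at 0.

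The first comparison set cKO hearts beside WT hearts. The cKO hearts were taken earlier, so the loss of Pkp2 and the age at collection cannot be told apart here. In the RV, 5 of the 9 genes that could be tested were higher in cKO than in WT (Junb, Myc, Atf3, Fos and Ier2), and none was lower. That share stands beside 42.3% of the 14150 genes tested that were called in either direction and 22.0% called higher. By the fit Junb was 3.08-fold, Myc 3.15-fold and Atf3 3.04-fold the WT level. Jun, Egr1, Ier3 and Nr4a1 did not pass. All adjusted p-values are from edgeR's quasi-likelihood test with Benjamini-Hochberg adjustment over all genes tested in that comparison, and a gene was called at an adjusted p below 0.05.

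Junb had 32.8, 22.8, 38.2 and 25.6 CPM in cKO_RV_2006, cKO_RV_2052, cKO_RV_3213 and cKO_RV_3217, against 7.27 to 12.3 CPM in WT RV (median 9.65, n = 9). All 4 cKO libraries lay above all 9 WT libraries, as they did for 12.7% of all genes tested. It rose by 1.62 log2 units (SE 0.16, adjusted p = 3.07e-06), and the call held when each library in turn was left out. Myc had 24.8, 8.91, 21.0 and 15.2 CPM in cKO RV, against 2.55 to 9.83 CPM in WT RV (median 4.75). Only the library of animal cKO_2052 lay within the WT range. The difference was 1.66 (SE 0.35, adjusted p = 0.00135), and its call held in the same way.

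Atf3 had 40.6, 12.7, 12.9 and 12.6 CPM in cKO RV, against 3.16 to 13.6 CPM in WT RV (median 5.11). Animal cKO_2006 stood far above the other 3, which lay at the top of the WT range. Atf3 rose by 1.60 (SE 0.41, adjusted p = 0.00534), and without the RV of animal cKO_2006 it no longer passed (adjusted p = 0.0659). Fos had 20.9, 7.91, 8.68 and 13.9 CPM in cKO RV, against 1.97 to 14.5 CPM in WT RV (median 5.01), so that the groups overlapped. Its rise of 1.21 (SE 0.44, adjusted p = 0.0377) was lost without cKO_RV_2006 or cKO_RV_3217 or WT_RV_13, WT_RV_2027, WT_RV_2040, WT_RV_5803, WT_RV_5819 or WT_RV_5823 (adjusted p between 0.0502 and 0.176), and also with length offsets or on log2(TPM + 1). Over all alternatives its adjusted p ran between 0.00521 and 0.176. Ier2 had 10.7, 9.31, 14.0 and 12.3 CPM in cKO RV, against 4.39 to 11.1 CPM in WT RV (median 7.63). Its rise was the smallest of the 5, at 0.59 (SE 0.21, adjusted p = 0.0336), and was lost without cKO_RV_2006, cKO_RV_3213 or cKO_RV_3217 or WT_RV_2031, WT_RV_2040 or WT_RV_5823 (adjusted p between 0.0508 and 0.109). It was also lost under 5 other settings, among them no filter on low counts and log2(TPM + 1), with an adjusted p between 0.0161 and 0.201 over all alternatives.

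The 3 genes with the most RNA per length, Jun, Ier3 and Egr1, had the smallest differences, and none passed. Jun, whose protein pairs with those of the Fos genes, had 136, 92.1, 81.3 and 97.8 CPM in cKO RV, against 55.4 to 107 CPM in WT RV (0.28, SE 0.18, adjusted p = 0.231). Egr1 had 69.1, 42.4, 61.4 and 55.7 CPM in cKO RV, against 32.2 to 115 CPM in WT RV (0.13, SE 0.28, adjusted p = 0.748). For both genes the groups overlapped. Ier3 had 14.5, 19.8, 31.4 and 23.7 CPM in cKO RV, against 16.8 to 27.6 CPM in WT RV, and its difference was 0.07 (SE 0.18, adjusted p = 0.781). Nr4a1 had 54.4, 15.2, 12.3 and 12.0 CPM in cKO RV, against a WT RV range of 0 to 25.0 CPM (median 15.7), a difference of 0.60 (SE 0.59, adjusted p = 0.440). Here again animal cKO_2006 stood apart, while the other 3 cKO libraries lay below the WT median.

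In the LV, Junb and Myc were again higher in cKO than in WT. They were 2 of 9 tested, beside 46.6% of genes called in either direction and 23.6% called higher. Junb had 19.4, 20.7, 27.0 and 15.9 CPM in cKO LV, against 3.45 to 17.4 CPM in WT LV (median 9.36), a rise of 1.19 (SE 0.34, adjusted p = 0.0105). Myc had 29.1, 13.1, 33.4 and 9.41 CPM in cKO LV, against 3.49 to 13.7 CPM in WT LV (median 5.23). That was a rise of 1.84 (SE 0.37, adjusted p = 8.99e-04), and both calls held when each library in turn was left out. Animals cKO_2006 and cKO_3213 carried the higher Myc values.

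The other genes did not pass in the LV. Fos had 13.6, 2.60, 14.8 and 4.00 CPM in cKO LV, against 1.85 to 8.79 CPM in WT LV (0.77, SE 0.47, adjusted p = 0.201). Atf3 had 36.0, 7.36, 20.4 and 7.03 CPM in cKO LV, against 1.40 to 25.1 CPM in WT LV (1.09, SE 0.66, adjusted p = 0.195). For both, animals cKO_2006 and cKO_3213 were the high ones of the 4. Ier2 had 7.84, 13.6, 10.3 and 7.89 CPM in cKO LV, against 3.30 to 9.86 CPM in WT LV, a difference of 0.65 (SE 0.26, adjusted p = 0.0564). Jun had 198, 111, 113 and 98.5 CPM in cKO LV, against 61.3 to 161 CPM in WT LV (0.26, SE 0.23, adjusted p = 0.379). Egr1 had 75.5, 53.6, 61.7 and 38.2 CPM in cKO LV, against 27.1 to 132 CPM in WT LV (−0.24, SE 0.34, adjusted p = 0.597). Ier3 (12.2, 21.6, 37.6 and 21.1 CPM in cKO LV, −0.11) and Nr4a1 (25.8, 16.0, 9.30 and 12.3 CPM in cKO LV, 0.33) also overlapped with WT LV.

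Whether the cKO-to-WT difference itself differed between the ventricles was tested as an interaction, in which none of the 9 genes passed in edgeR, at an unadjusted p below 0.05 or in DESeq2, beside 0.0272% of all genes called. The largest of these interaction values was 0.48 for Atf3 (SE 0.86, adjusted p = 0.873).

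The cell make-up moved with these results. In cKO RV against WT RV, 6 of 8 cardiomyocyte markers were lower (summed level 37263 to 95696 CPM in cKO and 102637 to 149606 CPM in WT), 6 of 8 fibroblast markers were higher (4324 to 8333 and 763 to 1403 CPM) and 8 of 8 macrophage markers were higher (1158 to 2835 and 312 to 496 CPM). In cKO LV against WT LV, 7 of 8 cardiomyocyte markers were lower (36112 to 80263 and 140744 to 166660 CPM). There 3 of 8 fibroblast markers (2348 to 6054 and 937 to 1393 CPM) and 8 of 8 macrophage markers (518 to 2716 and 261 to 422 CPM) were higher. None of the markers on these 3 lists was at 0 in any library, and the part of these cells in the results was not tested. Neutrophil markers were higher for 1 of 4 tested in cKO RV (summed level 25.3 to 51.6 CPM in cKO and 9.20 to 16.3 CPM in WT) and for 4 of 4 in cKO LV (12.1 to 95.7 and 3.71 to 11.9 CPM), and their part was not tested either. The neutrophil list holds 7 genes, of which 2 could be tested in each comparison of a vector group with WT. Some of the 4 thus passed the low-count filter here and not there, which can raise the share called. Atrial markers were higher for 1 of 3 tested in cKO RV (270 to 669 CPM in cKO and 14.5 to 751 CPM in WT) and for 2 of 2 in cKO LV (348 to 810 and 15.8 to 80.0 CPM). This list includes Nppa, which the study treats as a heart failure marker. Nppa had a mean of 202 CPM over all libraries, against 23.1 CPM for Dkk3, the next on the list. Here and below, the summed atrial level therefore need not reflect atrial cells. In bulk tissue, fewer cells of a type and less RNA per cell cannot be told apart.

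A wider list of 45 other immediate early genes, which includes the phosphatases of the Dusp family, the Klf factors and the feedback regulators Socs3 and Zfp36, was read beside the 10. In cKO RV against WT RV, 17 of 41 tested were higher and 1 was lower, a share called of 43.9% beside 42.3% of all genes, with a median difference of 0.53 beside 0.02 for all genes tested. Egr2, a relative of Egr1, was 3.49 higher (SE 0.30, adjusted p = 1.08e-06). Socs3, an inhibitor of cytokine signalling (2.33), Ptgs2, the inducible cyclooxygenase (1.83), Plk3 (1.68) and Gadd45b (1.65) followed. In the LV, 14 of 41 were higher and 1 lower (36.6% called, beside 46.6% of all genes), with a median of 0.42 beside 0.05. Nfkbiz (1.29), Ctgf (1.93), Ptgs2 (2.06), Egr2 (2.33) and Socs3 (2.32) had the smallest p there. The median over the 9 tested genes of the 10 was 0.60 in the RV and 0.65 in the LV.

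The kinases and factors that act on immediate early promoters were read as a list of their own. Of 22 tested in cKO RV against WT RV, 4 were higher and 5 lower (40.9% called, beside 42.3% of all genes), and in the LV 6 were higher and 8 lower (63.6%, beside 46.6%). The kinase genes Rps6ka1 (1.58 in RV, 1.42 in LV) and Mapk3 (0.75 in RV) were higher, and the stress kinase gene Mapk8 (−0.77 in RV), the factor genes Mef2a (−0.56 in RV, −0.86 in LV) and Mef2c (−1.46 in LV) were lower. Among genes whose proteins pair with those of Myc, Fos, Jun or Atf3, 9 of 16 were higher and 1 was lower in cKO RV (62.5% called, beside 42.3% of all genes). Only 14 of this list could be tested in each RV comparison of a vector group with WT. The 16 thus include genes that passed the low-count filter here and not there, which can raise the share called. Mycl (3.06), Mxd1 (0.79), Mxd4 (0.71), Atf4 (0.61) and Mafg (0.58) had the smallest p. In the LV, 6 of 15 were higher and 2 lower (53.3%, beside 46.6%), with Batf (1.83) and Jdp2 (1.12) among the higher and Mxi1 (−0.49) among the lower.

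**Figure D2:**
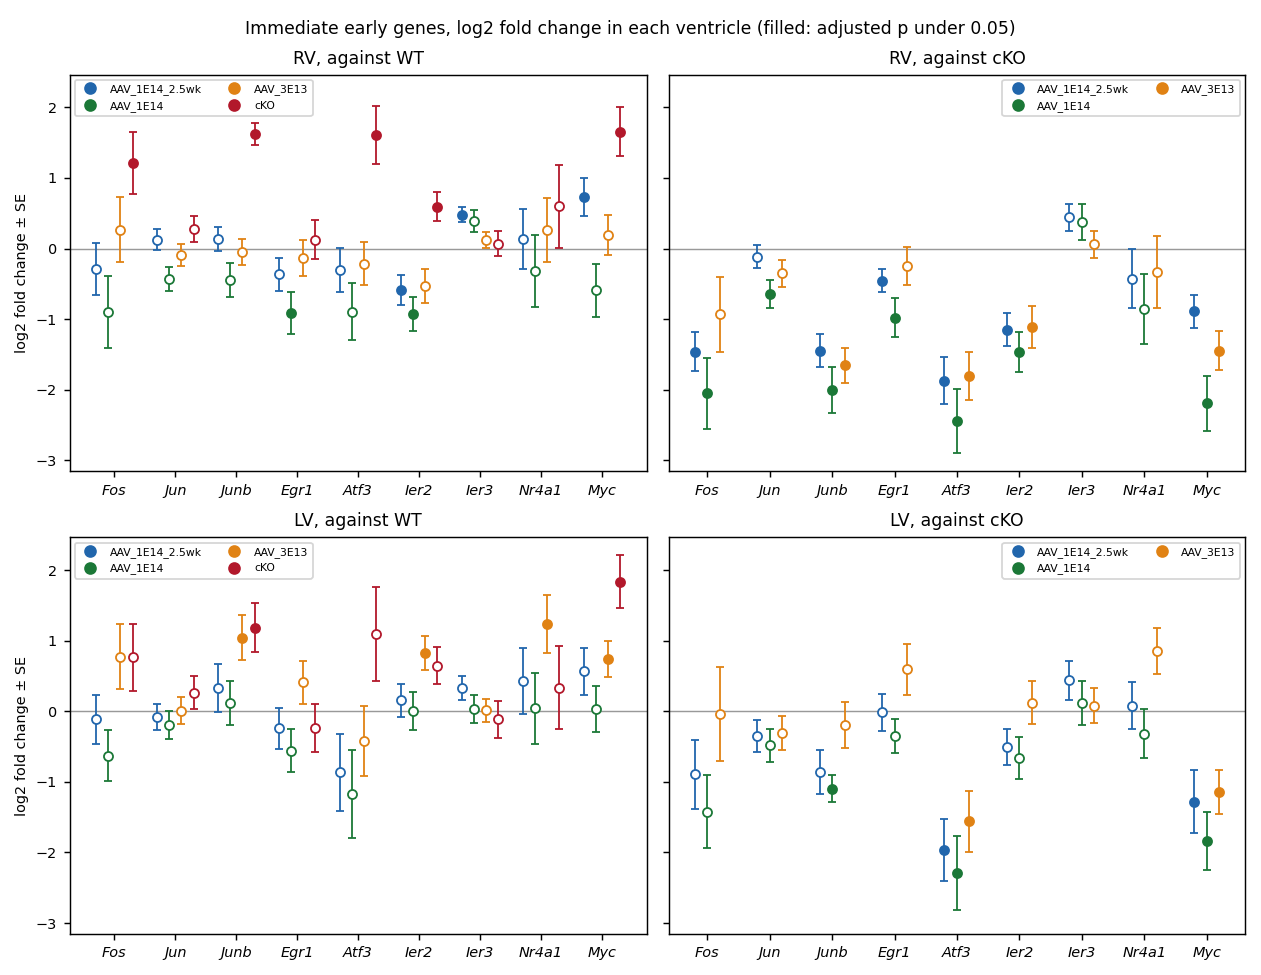
Log2 fold change of each gene that could be tested, with its standard error, in each group against WT (left panels) and in each vector group against cKO (right panels), for RV (top) and LV (bottom), with filled points where the adjusted p was below 0.05. Junb and Myc lie above 0 for cKO against WT in both ventricles, at 1.62 and 1.66 in RV and 1.19 and 1.84 in LV.

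The next comparisons set hearts that had received AAV9:mPkp2 beside untreated cKO hearts. In the RV all called genes were lower. There were 4 of 10 in AAV_3E13 (Atf3, Ier2, Junb and Myc), 7 of 10 in AAV_1E14 (the same 4 with Fos, Egr1 and Jun) and 6 of 9 in AAV_1E14_2.5wk (as AAV_1E14, without Jun). Over all genes 42.0%, 50.6% and 47.9% were called in either direction in these 3 comparisons, and 22.7%, 26.4% and 25.2% were called lower. The 3 comparisons share the same 4 cKO libraries, and cKO RV was the group with the higher values in the comparison above, so that they are not independent of it.

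In AAV_1E14 RV, Fos had 7.25, 1.40, 1.33, 2.13 and 3.01 CPM in animals AAV_1E14_2034, AAV_1E14_2043, AAV_1E14_5726, AAV_1E14_5822 and AAV_1E14_5825, against 20.9, 7.91, 8.68 and 13.9 CPM in cKO RV. The groups did not overlap (−2.05, SE 0.50, adjusted p = 0.00561). Junb had 9.10, 12.6, 3.87, 5.05 and 5.62 CPM in AAV_1E14 RV, against 22.8 to 38.2 CPM in cKO RV (−2.01, SE 0.33, adjusted p = 4.64e-04). Atf3 had 6.33, 2.66, 1.81, 2.79 and 4.11 CPM in AAV_1E14 RV, against 12.6 to 40.6 CPM in cKO RV (−2.44, SE 0.45, adjusted p = 0.00109). Myc had 3.95, 1.82, 2.06, 5.72 and 5.07 CPM in AAV_1E14 RV, against 8.91 to 24.8 CPM in cKO RV (−2.19, SE 0.39, adjusted p = 8.45e-04). None of these 4 genes overlapped between the groups, and neither did Ier2, Egr1 and Jun, which makes 7 of 10 beside 22.8% of all genes tested whose AAV_1E14 RV values all lay below those of cKO RV.

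Ier2 had 3.16, 6.45, 2.66, 4.26 and 3.97 CPM in AAV_1E14 RV, against 9.31 to 14.0 CPM in cKO RV (−1.47, SE 0.28, adjusted p = 0.00124). Egr1 had 34.5, 37.8, 12.6, 30.7 and 25.9 CPM in AAV_1E14 RV, against 42.4 to 69.1 CPM in cKO RV (−0.98, SE 0.27, adjusted p = 0.0114). Jun had 75.0, 72.9, 41.4, 66.9 and 62.2 CPM in AAV_1E14 RV, against 81.3 to 136 CPM in cKO RV (−0.65, SE 0.20, adjusted p = 0.0181). The call for Jun was lost without cKO_RV_2006 (adjusted p = 0.0544), and those for Jun and Egr1 on log2(TPM + 1) or log2(TPM + 0.1), and that for Jun with length offsets too, with adjusted p between 0.00677 and 0.306 for Jun and between 0.00205 and 0.0721 for Egr1 over all alternatives. Ier3 had 35.5, 34.8, 21.5, 19.8 and 30.4 CPM in AAV_1E14 RV and overlapped with the 14.5 to 31.4 CPM of cKO RV, and its difference had the other sign without passing (0.38, SE 0.25, adjusted p = 0.237). Nr4a1 did not pass either (−0.86, SE 0.50, adjusted p = 0.172).

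In AAV_3E13 RV, Atf3 (3.37 to 8.25 CPM, median 5.03, n = 8, −1.81, SE 0.34, adjusted p = 7.84e-04), Junb (6.16 to 15.5 CPM, median 8.58, −1.65, SE 0.25, adjusted p = 1.59e-04) and Ier2 (2.29 to 9.12 CPM, median 5.37, −1.11, SE 0.30, adjusted p = 0.00878) lay below all cKO RV libraries, 3 of 10 beside 13.2% of all genes tested. Myc (4.44 to 11.2 CPM, median 5.79) overlapped with cKO RV in its range and was lower too (−1.45, SE 0.28, adjusted p = 8.92e-04). The call for Ier2 was lost with length offsets and on both TPM scales (adjusted p between 0.00120 and 0.202 over all alternatives). Fos spread between 1.72 and 16.6 CPM in AAV_3E13 RV and did not pass (−0.93, SE 0.53, adjusted p = 0.171). In AAV_1E14_2.5wk RV, Fos was tight, at 3.97 to 6.18 CPM (median 4.31, n = 6), and lay below all cKO RV libraries (−1.46, SE 0.27, adjusted p = 0.00116). Junb (6.65 to 15.5 CPM), Atf3 (4.08 to 6.39 CPM) and Ier2 (3.71 to 7.67 CPM) also lay below all of them, with differences of −1.45, −1.87 and −1.15, so that 4 of 9 did, beside 18.6% of all genes tested. Myc (7.95 to 10.6 CPM, −0.89, SE 0.24, adjusted p = 0.00952) was lower as well. The calls for Ier2 and Myc were lost on both TPM scales, with adjusted p of up to 0.0653 and 0.170. The call for Egr1 (−0.45, SE 0.16, adjusted p = 0.0333) was lost without AAV_1E14_2.5wk_RV_5755, AAV_1E14_2.5wk_RV_5806, AAV_1E14_2.5wk_RV_5807 or AAV_1E14_2.5wk_RV_5814 or cKO_RV_2006, cKO_RV_3213 or cKO_RV_3217 (adjusted p between 0.0511 and 0.104), and under 4 other settings (up to 0.593).

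In the LV fewer genes passed against cKO. They were Atf3 and Myc in AAV_3E13 (18.0% of all genes called, 9.45% lower), Atf3, Junb and Myc in AAV_1E14 (35.4% called, 18.1% lower) and Atf3 and Myc in AAV_1E14_2.5wk (33.3% called, 15.9% lower), of 9 tested each time and all lower. Junb passed in LV at the higher early dose. It had 8.89 to 11.3 CPM in the 5 AAV_1E14 LV libraries, below the 15.9 to 27.0 CPM of cKO LV (−1.09, SE 0.19, adjusted p = 0.00192). Such a full separation, with AAV_1E14 LV lower, was found for 2 of 9 genes, beside 2039 of all 13602 genes tested. AAV_3E13 LV, at 6.48 to 27.0 CPM (median 19.4), differed from cKO LV by −0.19 (SE 0.32, adjusted p = 0.733). The log2 fold changes of Atf3 were −1.56 (SE 0.44, adjusted p = 0.0258) in AAV_3E13 LV, −2.29 (SE 0.53, adjusted p = 0.00740) in AAV_1E14 LV and −1.97 (SE 0.44, adjusted p = 0.00596) in AAV_1E14_2.5wk LV. Those of Myc were −1.14 (SE 0.31, adjusted p = 0.0235), −1.84 (SE 0.41, adjusted p = 0.00644) and −1.28 (SE 0.44, adjusted p = 0.0435) in the same 3 groups. Without cKO_LV_2006 or cKO_LV_3213 the calls for Atf3 and Myc in AAV_3E13 were lost, with adjusted p of up to 0.212 and 0.107, as they were on both TPM scales. The call for Myc in AAV_1E14_2.5wk was lost without AAV_1E14_2.5wk_LV_5801, AAV_1E14_2.5wk_LV_5806, AAV_1E14_2.5wk_LV_5807, AAV_1E14_2.5wk_LV_5810 or AAV_1E14_2.5wk_LV_5814 or cKO_LV_2006 or cKO_LV_3213 (adjusted p between 0.0638 and 0.139), and on both TPM scales.

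The 45 other immediate early genes were read in the same comparisons. In AAV_1E14 RV against cKO RV, none of 41 was higher and 19 were lower (46.3% called, beside 50.6% of all genes), with a median of −0.68 beside −0.06 for all genes. Egr2 (−3.14), Plk3 (−2.30), Ctgf (−1.62), Nfkbiz (−1.58) and Ier5 (−1.17) had the smallest p. In AAV_3E13 RV none was higher and 15 were lower (36.6%, beside 42.0%), and in AAV_1E14_2.5wk RV 1 was higher and 11 were lower (29.3%, beside 47.9%). Markers moved here too: in AAV_1E14 RV against cKO RV, 6 of 8 cardiomyocyte markers were higher (137562 to 163309 and 37263 to 95696 CPM) and 8 of 8 macrophage markers lower (398 to 550 and 1158 to 2835 CPM), and 3 of 8 fibroblast markers were lower (1232 to 1335 and 4324 to 8333 CPM). In AAV_3E13 RV, 5 of 8 cardiomyocyte markers were higher (102606 to 136960 CPM) and 7 of 8 macrophage markers lower (479 to 993 CPM), and in AAV_1E14_2.5wk RV, 6 of 8 were higher (117397 to 159837 CPM) and 8 of 8 lower (390 to 638 CPM). In both, 3 of 8 fibroblast markers were lower, and 1 was higher in AAV_3E13. In the LV, macrophage markers were lower for 6 of 8 in AAV_3E13 (422 to 758 CPM), 8 of 8 in AAV_1E14 (296 to 438 CPM) and 8 of 8 in AAV_1E14_2.5wk (365 to 566 CPM), against 518 to 2716 CPM in cKO LV. Cardiomyocyte markers were higher there for 3 of 8 in AAV_3E13 (96487 to 124325 CPM), 6 of 8 in AAV_1E14 (111773 to 176733 CPM) and 6 of 8 in AAV_1E14_2.5wk (135021 to 167230 CPM), against 36112 to 80263 CPM in cKO LV. In each of these 3 LV comparisons 3 of 8 fibroblast markers were lower, and 1 was higher in AAV_3E13. The part of these cells in the results was not tested.

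Hearts that had received the vector were then compared with WT hearts. In the LV, 4 of 9 genes were higher (Nr4a1, Junb, Ier2 and Myc) in AAV_3E13 and none was lower, beside 39.2% of all genes called. Junb ran between 6.48 and 27.0 CPM in AAV_3E13 LV (median 19.4, n = 8), against 3.45 to 17.4 CPM in WT LV (median 9.36, n = 9), a rise of 1.04 (SE 0.32, adjusted p = 0.0133). Ier2 ran between 4.37 and 15.4 CPM in AAV_3E13 LV (median 10.9), against 3.30 to 9.86 CPM in WT LV (median 6.53), and was 0.82 higher (SE 0.24, adjusted p = 0.0108). The ranges of both genes overlapped, with the AAV_3E13 medians above the highest WT value. Both calls held when each library in turn was left out.

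Nr4a1 ran between 16.3 and 47.0 CPM in AAV_3E13 LV (median 27.1), against 0 to 20.9 CPM in WT LV (median 12.7), and was 1.24 higher (SE 0.41, adjusted p = 0.0216). Without WT_LV_2031, in which Nr4a1 was listed at 0, the difference was 1.07 (adjusted p = 0.00196), and without AAV_3E13_LV_5809 it no longer passed (adjusted p = 0.0504), nor on log2(TPM + 0.1) (adjusted p = 0.0608). Myc ran between 5.92 and 14.3 CPM in AAV_3E13 LV (median 9.97), against 3.49 to 13.7 CPM in WT LV (median 5.23). It was 0.75 higher (SE 0.25, adjusted p = 0.0259), and its call was lost without AAV_3E13_LV_2048 (adjusted p = 0.0611), with length offsets and with all groups in 1 fit (adjusted p between 7.06e-04 and 0.102 over all alternatives). Fos (0.78, SE 0.46, adjusted p = 0.189) and Egr1 (0.41, SE 0.31, adjusted p = 0.306) did not pass, and 3 animals, AAV_3E13_2029, AAV_3E13_2045 and AAV_3E13_5768, held the 3 highest values of both genes in AAV_3E13 LV, at 11.3, 24.8 and 13.6 CPM of Fos and 130, 156 and 142 CPM of Egr1. The other 5 AAV_3E13 LV libraries lay at or below 6.79 CPM of Fos and 56.8 CPM of Egr1.

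Of the 45 other genes, 19 of 41 tested were higher in AAV_3E13 LV than in WT LV and none was lower (46.3% called, beside 39.2% of all genes), with a median of 0.41 beside 0.05 for all genes, and Ptgs2 (1.53), Cebpd (1.00), Klf4 (0.79), Nfkbiz (0.79) and Dusp6 (0.44) had the smallest p. In the same comparison 6 of 8 cardiomyocyte markers were lower (96487 to 124325 CPM in AAV_3E13 and 140744 to 166660 CPM in WT). There 7 of 8 fibroblast (1452 to 3010 and 937 to 1393 CPM), 8 of 8 macrophage (422 to 758 and 261 to 422 CPM) and 7 of 8 endothelial markers (1595 to 2307 and 1365 to 1728 CPM) were higher, as were 1 of 2 neutrophil markers tested (2.40 to 90.5 and 3.71 to 11.9 CPM) and 2 of 2 atrial markers tested (119 to 476 and 15.8 to 80.0 CPM). Their part in the result was not tested.

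In AAV_3E13 RV none of the 9 genes passed against WT RV in edgeR, beside 21.8% of all genes called. At an unadjusted p below 0.05 there was 1, Ier2 (−0.53, SE 0.24, adjusted p = 0.126), in DESeq2 there was none, and limma on log2(TPM + 1) called 1, Ier3. Markers moved here although none of the 9 genes passed in edgeR. In AAV_3E13 RV against WT RV, 7 of 8 fibroblast and 3 of 8 macrophage markers were higher, and 6 of 8 endothelial markers were lower. Of 8 cardiomyocyte markers 1 was higher and 3 were lower. In AAV_1E14 RV, 2 genes of 9 were lower than in WT RV, beside 29.5% of all genes called. Egr1 had 12.6 to 37.8 CPM there, against 32.2 to 115 CPM in WT RV (−0.91, SE 0.30, adjusted p = 0.0311), and Ier2 had 2.66 to 6.45 CPM, against 4.39 to 11.1 CPM (−0.93, SE 0.25, adjusted p = 0.0104). The call for Ier2 held when each library in turn was left out, and that for Egr1 was lost without AAV_1E14_RV_5726, AAV_1E14_RV_5822 or AAV_1E14_RV_5825 (adjusted p between 0.0564 and 0.0800). Both were lost on the TPM scales, and Ier2 with length offsets too, with adjusted p of up to 0.0837 for Ier2. In this RV comparison 8 of 8 endothelial markers were lower (1188 to 1522 CPM in AAV_1E14 and 1456 to 2147 CPM in WT), and 5 of 8 cardiomyocyte markers were higher and 1 lower (137562 to 163309 and 102637 to 149606 CPM), and their part in the result was not tested. In AAV_1E14 LV none of the 9 passed in edgeR, at an unadjusted p below 0.05, in DESeq2 or in limma, where 0.00750% of all genes were called.

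In AAV_1E14_2.5wk RV, 3 of 9 genes differed from WT RV, beside 36.3% of all genes. Ier3 was higher, at 26.8 to 35.6 CPM (median 29.9), against 16.8 to 27.6 CPM in WT RV (median 20.5), with a difference of 0.48 (SE 0.11, adjusted p = 0.00249) whose call held when each library in turn was left out. Myc had 7.95 to 10.6 CPM, against 2.55 to 9.83 CPM in WT RV (0.73, SE 0.27, adjusted p = 0.0427), and Ier2 had 3.71 to 7.67 CPM, against 4.39 to 11.1 CPM (−0.59, SE 0.21, adjusted p = 0.0372). The call for Myc was lost without AAV_1E14_2.5wk_RV_5755, AAV_1E14_2.5wk_RV_5806, AAV_1E14_2.5wk_RV_5807, AAV_1E14_2.5wk_RV_5810 or AAV_1E14_2.5wk_RV_5814 or WT_RV_13, WT_RV_2027, WT_RV_2031, WT_RV_2040, WT_RV_5803 or WT_RV_5813 (adjusted p between 0.0534 and 0.0850), and with length offsets or no filter on low counts. That for Ier2 was lost without AAV_1E14_2.5wk_RV_5755, AAV_1E14_2.5wk_RV_5806, AAV_1E14_2.5wk_RV_5807 or AAV_1E14_2.5wk_RV_5814 or WT_RV_2004, WT_RV_2027, WT_RV_5813 or WT_RV_5819 (adjusted p between 0.0575 and 0.0881), and under 5 other settings (up to 0.506). In the same comparison 8 of 8 endothelial markers were lower (1149 to 1425 CPM in AAV_1E14_2.5wk and 1456 to 2147 CPM in WT). There 6 of 8 fibroblast markers (1370 to 3871 and 763 to 1403 CPM) and 3 of 8 macrophage markers (390 to 638 and 312 to 496 CPM) were higher, while 3 of 8 cardiomyocyte markers were higher and 2 lower (117397 to 159837 and 102637 to 149606 CPM). Their part in the result was not tested. In AAV_1E14_2.5wk LV none passed in edgeR, at an unadjusted p below 0.05, in DESeq2 or in limma, beside 1.49% of all genes called.

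Dose and timing were compared directly. Between the doses, no gene of the 9 passed in RV in edgeR (9.97% of all genes called), with 3 at an unadjusted p below 0.05 (Atf3, Egr1 and Myc), 1 in DESeq2 (Egr1) and none in limma. Markers moved in that RV comparison all the same. In AAV_1E14 RV, 6 of 8 fibroblast and 2 of 4 atrial markers tested were lower than in AAV_3E13 RV, and 3 of 8 cardiomyocyte markers were higher. In LV 3 of the 9 genes were lower in AAV_1E14 than in AAV_3E13 (19.0% called). They were Nr4a1 (6.90 to 19.1 CPM in AAV_1E14 LV and 16.3 to 47.0 CPM in AAV_3E13 LV, −1.20, SE 0.29, adjusted p = 0.00977), Egr1 (33.7 to 66.7 and 50.9 to 156 CPM, −0.97, SE 0.32, adjusted p = 0.0486) and Junb (8.89 to 11.3 and 6.48 to 27.0 CPM, −0.93, SE 0.29, adjusted p = 0.0378). Nr4a1 kept its call when each library in turn was left out, and lost it with all groups in 1 fit (adjusted p = 0.0730). Egr1 lost its call without the AAV_1E14 LV of any of the 5 animals or AAV_3E13_LV_2029, AAV_3E13_LV_2045 or AAV_3E13_LV_5768 (adjusted p between 0.0506 and 0.114), and Junb without the AAV_1E14 LV of any of the 5 animals or AAV_3E13_LV_2033, AAV_3E13_LV_2045, AAV_3E13_LV_2047, AAV_3E13_LV_2048 or AAV_3E13_LV_5809 (adjusted p between 0.0515 and 0.0820). Both were also lost under 5 or more other settings (adjusted p of up to 0.118). In the same LV comparison 7 of 8 fibroblast markers (1031 to 1202 CPM in AAV_1E14 and 1452 to 3010 CPM in AAV_3E13), 5 of 8 macrophage markers (296 to 438 and 422 to 758 CPM) and 2 of 3 atrial markers tested (34.5 to 123 and 119 to 476 CPM) were lower. There 5 of 8 cardiomyocyte markers were higher (111773 to 176733 and 96487 to 124325 CPM), and the part of these cells in the result was not tested.

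Between the timings, Myc was higher in AAV_1E14_2.5wk RV (7.95 to 10.6 CPM) than in AAV_1E14 RV (1.82 to 5.72 CPM) with no overlap, as were 2.57% of all genes tested (1.33, SE 0.27, adjusted p = 0.0124). Jun was 0.57 higher (SE 0.16, adjusted p = 0.0409) and lost its call without AAV_1E14_2.5wk_RV_5755, AAV_1E14_2.5wk_RV_5801, AAV_1E14_2.5wk_RV_5807, AAV_1E14_2.5wk_RV_5810 or AAV_1E14_2.5wk_RV_5814 or AAV_1E14_RV_2034, AAV_1E14_RV_5726, AAV_1E14_RV_5822 or AAV_1E14_RV_5825 (adjusted p between 0.0514 and 0.0901), on both TPM scales and with all groups in 1 fit. In this comparison 3 of 8 fibroblast markers (1370 to 3871 CPM in AAV_1E14_2.5wk and 1232 to 1335 CPM in AAV_1E14) and 2 of 4 atrial markers tested (40.0 to 719 and 12.1 to 42.1 CPM) were higher and 3 of 8 cardiomyocyte markers lower (117397 to 159837 and 137562 to 163309 CPM), and their part in the result was not tested. Myc and Jun were 2 of 9, beside 8.93% of all genes, and in LV neither a gene of the 9 nor any gene at all passed in edgeR (0.00%), with none of the 9 at an unadjusted p below 0.05, in DESeq2 or in limma.

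Each animal gave both ventricles, which were compared within each group. The main fits took the 2 libraries of an animal as separate, and fits with the animal as a block are given below. The AAV_3E13 group had 4 of 9 genes lower in RV than in LV (Ier2, Junb, Egr1 and Myc), beside 20.2% of all genes called. Ier2 ran between 2.29 and 9.12 CPM in AAV_3E13 RV and between 4.37 and 15.4 CPM in LV, and the RV was below the LV in 8 of 8 animals (−1.04, SE 0.28, adjusted p = 0.0145). Junb ran between 6.16 and 15.5 CPM in RV and between 6.48 and 27.0 CPM in LV, again with the RV below in 8 of 8 animals (−0.97, SE 0.27, adjusted p = 0.0187). Egr1 (−0.87, SE 0.30, adjusted p = 0.0446) and Myc (−0.62, SE 0.21, adjusted p = 0.0405) were lower in the RV of 7 of 8. Without animal AAV_3E13_2033 none of the 4 passed (adjusted p = 0.0561 for Ier2, 0.0728 for Junb, 0.0733 for Egr1 and 0.0978 for Myc). Junb was also lost without animal AAV_3E13_2048, Egr1 without AAV_3E13_2029, AAV_3E13_2045, AAV_3E13_2047, AAV_3E13_2048 or AAV_3E13_5759, and Myc without AAV_3E13_2029, AAV_3E13_2045, AAV_3E13_2047, AAV_3E13_5768 or AAV_3E13_5809 (adjusted p between 0.0563 and 0.121).

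None of the 9 genes passed between RV and LV in edgeR in cKO (0.00726% of all genes called), AAV_1E14 (2.95%), AAV_1E14_2.5wk (0.0226%) or WT (27.7%). At an unadjusted p below 0.05 there were none in cKO and WT, 2 in AAV_1E14 (Egr1 and Jun) and 1 in AAV_1E14_2.5wk (Egr1), and DESeq2 called Jun in AAV_1E14 and none in the other 3. Junb was above the LV in the RV of 4 of 4 cKO animals and of 6 of 9 WT animals. With the animal as a block, Jun was lower in RV than in LV in AAV_1E14 (−0.58, adjusted p = 0.0352) and in WT (−0.31, adjusted p = 0.0153), where the RV was below the LV in 5 of 5 and 8 of 9 animals, and Jun (−0.41, adjusted p = 0.0259) and Nr4a1 (−0.79, adjusted p = 0.0122) joined the 4 genes of AAV_3E13.

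The contrast of ventricles in AAV_3E13 was set against that in WT. Ier2 (−1.34, SE 0.35, adjusted p = 0.00278) and Junb (−1.08, SE 0.38, adjusted p = 0.0253) differed, beside 36.9% of all genes. Ier2 kept its call when each of the 17 animals in turn was left out, and Junb lost it without animal AAV_3E13_2033 (adjusted p = 0.0670) or AAV_3E13_2048 (adjusted p = 0.0512). In AAV_1E14 and AAV_1E14_2.5wk none of the 9 passed in edgeR or DESeq2 and 1, Ier2, had an unadjusted p below 0.05, beside 20.0% and 18.4% of all genes called. With the animal as a block Ier2 passed in both, at −0.95 (adjusted p = 0.0173) in AAV_1E14 and −0.75 (adjusted p = 0.0413) in AAV_1E14_2.5wk, and at −0.79 (adjusted p = 0.0488) in the last without animal AAV_1E14_2.5wk_5814. The RV of AAV_3E13 also had 6 of 8 endothelial markers lower than its LV (1321 to 1690 and 1595 to 2307 CPM), and 2 of 8 cardiomyocyte markers higher. In WT, 5 of 8 endothelial markers were higher in RV than in LV, and 6 of 8 cardiomyocyte markers were lower and 1 higher. By the test of ventricle by group for AAV_3E13, 7 of 8 endothelial markers were lower, and 4 of 8 cardiomyocyte markers were higher and 1 lower. The part of these cells in the result was not tested.

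**Figure D3:**
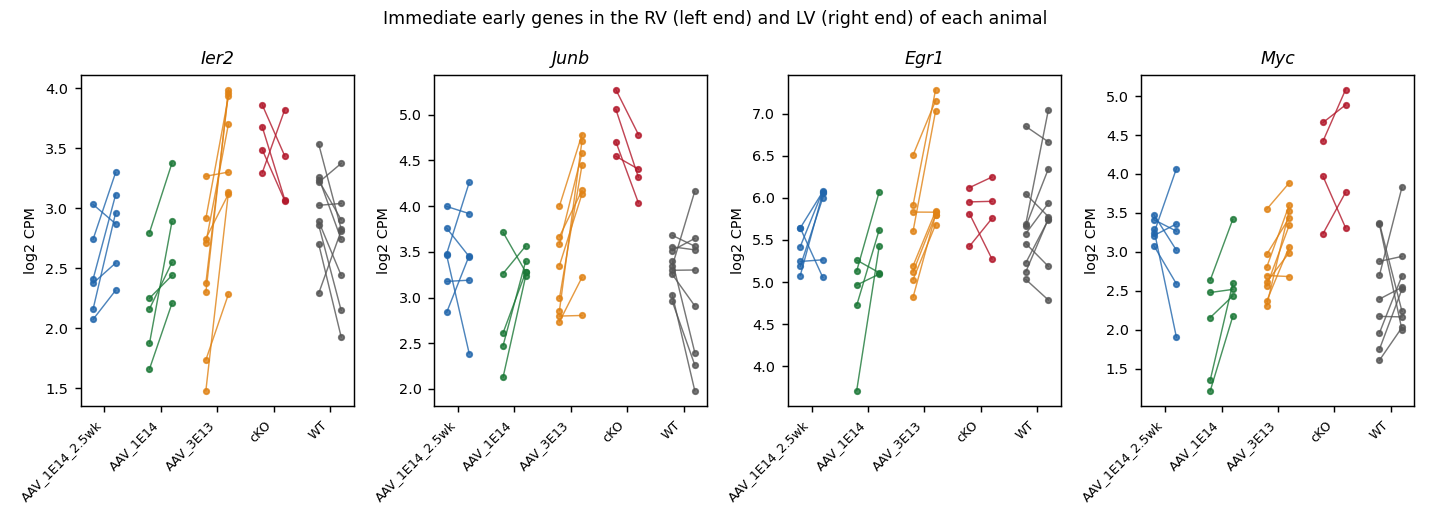
RV and LV level of Ier2, Junb, Egr1 and Myc as log2 CPM, by group, with the 2 libraries of an animal joined by a line that has the RV at its left end. In AAV_3E13 the RV lies below the LV in 8 of 8 animals for Ier2 and Junb and in 7 of 8 for Egr1 and Myc.

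Fosb, whose protein pairs with those of the Jun genes as that of Fos does, was near the limit of detection. It had counts in 13 of 64 libraries and was listed at 0 in the other 51. The 13 libraries held 3 to 60 counts and came mainly from cKO RV (3 of 4 libraries, 1.47 to 2.80 CPM) and AAV_3E13 (3 of 8 RV and 3 of 8 LV libraries, 0.349 to 8.27 CPM). None of the 4 cKO LV, 5 AAV_1E14 LV or 9 WT LV libraries had a count, and 1 of 9 WT RV libraries had 8. Fos had a median of 8.68 CPM in the libraries with Fosb counts (2.92 to 24.8 CPM) and 4.20 CPM in those without (1.33 to 16.6 CPM). Fosb passed the filter on low counts in 2 comparisons, AAV_3E13 RV (−0.91, SE 1.25, adjusted p = 0.593) and AAV_1E14 RV (−2.20, SE 1.27, adjusted p = 0.171) against cKO RV, and was called in neither.

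The spread between libraries of the same group and ventricle was large for several of these genes. The within-group SD of log2 CPM was 0.85 for Fos, at the 92.8th percentile of the genes with a mean of at least 1 CPM, and 0.75 for Atf3 (90.8th). Myc (0.56), Egr1 (0.55), Junb (0.53) and Ier2 (0.45) lay between the 69.7th and 81.5th percentiles. Jun (0.36) and Ier3 (0.34) lay near the middle, at the 55.9th and 51.8th. These percentiles take no account of the level of a gene. Over the 500 genes nearest in mean level, the median SD was 0.43 for Fos, 0.39 for Atf3, 0.37 for Myc and 0.23 for Egr1. It was 0.33 for Junb, 0.39 for Ier2, 0.22 for Jun, 0.28 for Ier3 and 0.30 for Nr4a1. For Nr4a1 the SD was 1.09 (95.2nd percentile), and 0.62 over the 62 libraries without the 2 in which it was listed at 0. Fos ranged 15.5-fold over the 8 AAV_3E13 LV libraries and 1.56-fold over the 6 AAV_1E14_2.5wk RV libraries. Atf3 ranged 17.9-fold over the 9 WT LV libraries, in which animals WT_2027 (25.1 CPM) and WT_2004 (20.9 CPM) were the high ones, and these 2 animals were also the highest of the WT RV libraries (10.9 and 13.6 CPM).

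For several genes part of this spread was shared by the 2 ventricles of an animal. Each library was expressed as its deviation from its group and ventricle mean, and RV and LV deviations were correlated over the 32 animals, for 10 genes, with permutation p-values adjusted over these 10. For Fos, Pearson's r was 0.67 (adjusted p = 0.00170) and Spearman's rho 0.61 (adjusted p = 0.00383), and r was 0.64 without the 2 animals farthest from the median. Jun had r = 0.66 (adjusted p = 0.00170, rho 0.70, adjusted p = 0.00100, r without the 2 farthest 0.61), Ier3 r = 0.64 (adjusted p = 0.00400, rho 0.64, adjusted p = 0.00260, 0.50) and Atf3 r = 0.62 (adjusted p = 0.00740, rho 0.48, adjusted p = 0.0237, 0.47). Egr1 had r = 0.50 (adjusted p = 0.0154, rho 0.50, adjusted p = 0.0134, 0.50), Ier2 r = 0.44 (adjusted p = 0.0450, rho 0.39, adjusted p = 0.0445, 0.49) and Junb r = 0.43 (adjusted p = 0.0154, rho 0.47, adjusted p = 0.0104, 0.44). These 7 of 10 permutation tests passed, and those of Myc (r = 0.33, adjusted p = 0.0951, rho 0.38, adjusted p = 0.0445, 0.50) and Fosb (r = 0.42, adjusted p = 0.0907, rho 0.45, adjusted p = 0.0440, 0.17) did not for r.

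Nr4a1 had r = 0.23 (adjusted p = 0.194) with rho 0.59 (adjusted p = 0.00505) over the 32 animals. Without animals WT_2031 and WT_5823, in each of which 1 ventricle was listed at 0, r was 0.58 (adjusted p = 0.0222, permutation test over 30 animals). In the same permutation tests over 30 animals Ier2 no longer passed (r = 0.42, adjusted p = 0.0648, rho 0.33, adjusted p = 0.107). As a description, the median r over 13892 genes was 0.23, with quartiles of 0.06 and 0.41, and Fos, Jun, Ier3 and Atf3 lay at the 96.4th, 96.1st, 95.1st and 93.7th percentiles of these genes. Of the others, Egr1 lay at the 85.3rd, Ier2 at the 78.8th, Junb at the 77.5th, Myc at the 64.8th and Nr4a1 at the 49.4th percentile. The r also differed between groups. Within WT, AAV_3E13 and AAV_1E14_2.5wk, in this order, it was 0.76, 0.76 and 0.90 for Fos and 0.82, 0.58 and 0.49 for Jun. It was 0.50, 0.05 and 0.69 for Ier3, 0.68, 0.33 and −0.14 for Atf3, and 0.61, 0.76 and −0.28 for Egr1. Junb had 0.70, 0.59 and 0.25, and Ier2 0.40, 0.44 and 0.49. The 2 libraries of an animal share the animal and its collection, and whether they also shared handling steps is not given in the labels.

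**Figure D4:**
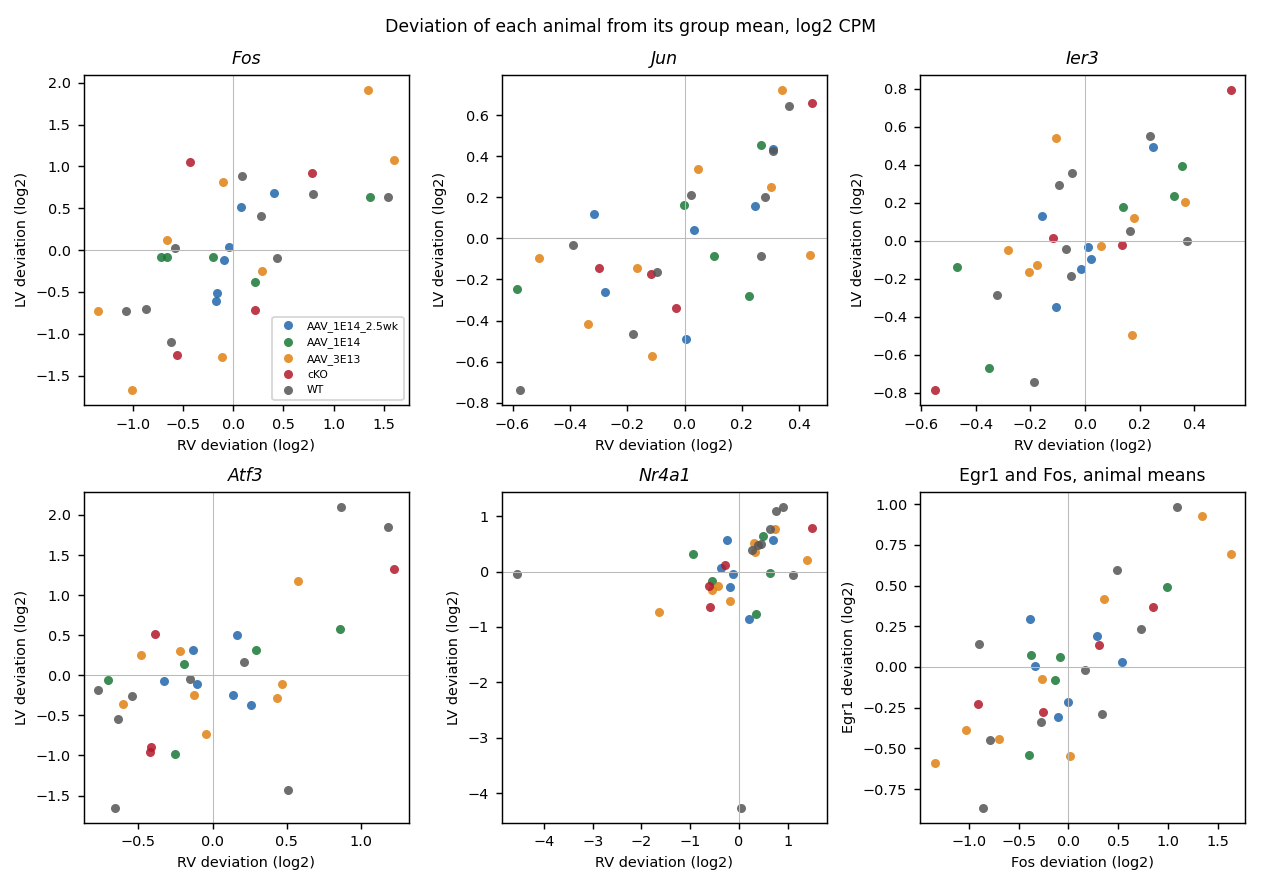
LV against RV deviation of log2 CPM from the group mean in each of 32 animals, coloured by group, for Fos, Jun, Ier3, Atf3 and Nr4a1, and, in the last panel, the mean deviation of Egr1 against that of Fos. Fos, Jun, Ier3 and Atf3 rise together in the 2 ventricles, with r of 0.67, 0.66, 0.64 and 0.62, while 2 WT animals lie far from the others for Nr4a1.

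The animals high in Fos were also high in Egr1. Over the means of each animal's 2 deviations, Egr1 followed Fos with r = 0.79 (adjusted p = 1.80e-04, rho 0.72, adjusted p = 9.90e-04, permutation tests over 32 animals and 9 genes), and r was 0.73 without the 2 animals farthest from the median. Fosb (r = 0.61, adjusted p = 0.0103, rho 0.51, adjusted p = 0.0291, 0.47) and Jun (r = 0.48, adjusted p = 0.0462, rho 0.46, adjusted p = 0.0402, 0.44) passed too. Those of Atf3 (r = 0.42, adjusted p = 0.0517), Ier2 (0.39), Nr4a1 (0.37), Junb (0.30), Myc (0.18) and Ier3 (0.15) did not by r. Genes of 1 library share its depth and scaling.

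Over all 13891 genes with a mean of at least 1 CPM, Egr1 was the gene most like Fos in its deviations over the 64 libraries, with r = 0.66. The genes outside the 10 that came next were Btg2 (0.61), Gm6136 (0.58), Tuba1b (0.53), Egr2 (0.53), Plau (0.51), Rpl13a (0.51), Ccl7 (0.50), Cmtm3 (0.50), Hat1 (0.49) and Clns1a (0.49). Btg2, an antiproliferative gene, and Egr2 are on the list of other immediate early genes, and Ccl7 is a chemokine that attracts monocytes. Of the 41 genes of that list compared, 3 were among the 30 genes most like Fos. Several others on it had a negative r with Fos, down to −0.24 for Per1 and −0.28 for Nfkbia. The median r with Fos over all these genes was 0.00.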

How the data were processed

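The authors state that they trimmed paired reads with fastp and quantified them with Salmon 1.8.0 against GENCODE M30 on GRCm39. They corrected for sequence, GC and position bias, and summarised transcripts to genes with tximport. Some genes carry older symbols in the deposited data, such as Ctgf for Ccn2 and Emr1 for Adgre1, and why was not tested. The authors deposited 3 tables with 1 column per library: estimated counts per gene, TPM (transcript abundance scaled by length and library total), and effective lengths in bases. The labels call the RNA polyA while the kit named in the methods depletes ribosomal RNA, and which was used is not settled here.

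The deposited estimated counts were rounded to whole numbers. The 37 mitochondrially encoded genes (16.6% to 40.2% of counts) and 1 row without a gene name (at most 0.00136% of counts) were left out. Genes were filtered with filterByExpr on the groups compared, scaled by TMM and tested with edgeR 4.0.16 (R 4.3.3), by the quasi-likelihood test, for each ventricle and pair of groups, with Benjamini-Hochberg adjustment over all genes and a threshold of 0.05. CPM was scaled by TMM over all 64 libraries, with a prior of 0.5 CPM on the log2 scale. TPM, as the authors deposited it, served only to compare levels between genes and for alternatives. RV and LV were paired by the animal number in the sample titles (median correlation of their deviations over genes 0.23), and the study's methods state no paired fit, so that the block was an alternative. Replicates were animals, so that p-values of comparisons between groups within a ventricle measure the spread between animals. The main fits of RV against LV and of ventricle by group took the 2 libraries of an animal as separate. Their p-values leave out the pairing. The fit of a pair of groups was run on simulated cKO and WT RV counts with a single dispersion for all genes. The permutation test was run on simulated deviations with and without a known correlation. Neither covers the ventricle fits or the spread of each of these genes.

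The alternatives were DESeq2 1.42.0, no low-count filter, mitochondrial genes kept, length offsets, limma 3.58.1 on log2(TPM + 1) and log2(TPM + 0.1), all 5 groups in 1 fit, the animal as a block, and each library left out in turn. Others were added after seeing the data: leaving out animals for the test of ventricle by group, leaving out AAV_1E14_2.5wk_5814 with the block, and leaving out WT_2031 and WT_5823, each with 1 zero of Nr4a1, from the correlations.

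The genes, gene lists and tests were chosen with earlier results of these data known. The rule for genes named was the 10 immediate early genes in every comparison, up to 5 called genes with the smallest p of each other list, the 10 other genes most like Fos, and marker genes where their list moved. Correlations over animals (numpy 2.4.6, scipy 1.17.1) used 100000 permutations of animals within groups. Gene positions and overlaps came from a later GENCODE annotation of GRCm39 than the one the authors state. Promoter sequences came from RefSeq (GRCm38.p6).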

Additional observations from a re-analysis of the deposited data

Results flagged for a closer look

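In groups of 4 to 10 libraries, the highest and lowest level of each gene was set against Dixon's 95% critical value, which chance passes in about 1 in 20 groups. Of 90 groups tested over 9 genes, 4 held a library that stood apart. Atf3 was at 40.6 CPM in cKO_RV_2006, the highest of 4, with the next library at 12.9 CPM. Nr4a1 was at 54.4 CPM in cKO_RV_2006, with the next at 15.2 CPM. Nr4a1 was listed at 0 in WT_LV_2031, with the next WT LV library at 8.62 CPM, and at 0 in WT_RV_5823, with the next WT RV library at 11.6 CPM. In no other library did Nr4a1 have fewer than 30 counts. The other ventricle held 11.6 CPM in WT_2031 and 8.76 CPM in WT_5823. Whether the zeros are failed estimates was not tested.

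The difference between RV and LV was not the same in AAV_3E13 as in WT for Ier2 (−1.34, edgeR adjusted p = 0.00278) and Junb (−1.08, edgeR adjusted p = 0.0253), by the test of ventricle by group. These were 2 of 9 genes tested, beside 36.9% of all genes called. Ier2 kept its call when each animal in turn was left out. Junb lost its call without animal AAV_3E13_2033 (edgeR adjusted p = 0.0670) or AAV_3E13_2048 (edgeR adjusted p = 0.0512). In AAV_3E13 the RV was below the LV in 8 of 8 animals for both genes.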

How the results depend on the processing

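No call of the 51 made over the 9 tested genes changed direction under any alternative. Of these, 30 kept their call when each library or animal in turn was left out, and 24 under every alternative run. The numbers that follow are genes called. With length offsets there were 3 in cKO against WT RV, 1 in AAV_1E14 against WT RV, 1 in AAV_1E14_2.5wk against WT RV and 1 in AAV_1E14 against AAV_3E13 LV. With no filter there was 1 in each of the last 2. DESeq2 called 4 in AAV_1E14 against WT RV, 1 in AAV_1E14 against AAV_3E13 RV, 6 in AAV_1E14 against AAV_3E13 LV and 1 in RV against LV of AAV_1E14. On both TPM scales limma called 3 in cKO against WT RV, 1 in AAV_3E13 against WT RV, 0 in AAV_1E14 against WT RV, 1 in AAV_1E14_2.5wk against AAV_1E14 RV, 0 in AAV_3E13 against cKO LV, 1 in AAV_1E14_2.5wk against cKO LV and 1 in AAV_1E14 against AAV_3E13 LV. With all 5 groups in 1 fit there was 1 in AAV_1E14_2.5wk against AAV_1E14 RV and 1 in AAV_1E14 against AAV_3E13 LV. The cause of these shifts was not tested. On log2(TPM + 1) the median of all genes in cKO against WT RV was −0.12, against 0.02 in edgeR, with 2068 genes higher and 3545 lower in place of 3112 and 2878. In AAV_3E13 against WT RV it was 0.14, against −0.02, with 2542 higher and 350 lower in place of 1558 and 1326. On the same scale 7 of 9 genes followed Fos over animals, in place of 3.

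With the animal as a replicate block, RV against LV gave 6 genes in AAV_3E13, in place of 4, and 1 (Jun) in AAV_1E14 and 1 (Jun) in WT, in place of 0. The test of ventricle by group gave 1 (Ier2) in AAV_1E14 and 1 (Ier2) in AAV_1E14_2.5wk, also without animal AAV_1E14_2.5wk_5814, in place of 0. It changed no other count.

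With each library or animal in turn left out, the counts ran between 2 and 6 in cKO against WT RV, 1 and 3 in AAV_1E14 against WT RV, 1 and 3 in AAV_1E14_2.5wk against WT RV, 1 and 2 in AAV_1E14_2.5wk against AAV_1E14 RV, 0 and 2 in AAV_3E13 against cKO LV, 1 and 3 in AAV_1E14_2.5wk against cKO LV, 1 and 5 in AAV_1E14 against AAV_3E13 LV, 0 and 3 in RV against LV of AAV_3E13, and 1 and 2 in ventricle by group of AAV_3E13. Fosb, with counts in 13 of 64 libraries, was below what this depth allows to be tested in most comparisons.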
